A study of Mus musculus with 18 samples.

Results

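Kit, the gene of the receptor for stem cell factor, was read in the 4 progenitor populations of the study: its row in the 2 count tables, which hold 24072 genes for the 9 stress spleen libraries and 10702 genes for the 6 libraries of burst-forming cells, and every open-chromatin peak whose assigned gene was Kit. There were 12 such peaks of 61661 in stress spleen burst-forming cells and 6 of 35142 in their bone marrow counterpart. All cells came from mice of the B6SJL background. The bone marrow population was the burst-forming unit-erythroid (BFU-E, the early erythroid progenitor, Sca1 negative) of unperturbed animals. The 3 spleen populations were taken on day 8 after lethal irradiation and a transplant of unfractionated marrow: multipotent progenitors (MPP, Sca1 positive), stress BFU-E (Sca1 negative) and the later colony-forming unit-erythroid (CFU-E, CD9 negative). Each population had 3 RNA libraries, and each BFU-E population also had 3 libraries of ATAC-seq, an assay that cuts open chromatin with a transposase, deposited as 1 merged peak list per population. The labels do not say whether replicates came from separate animals, whether animals were pooled or whether host cells were kept out, so p-values measure the spread between these samples only.

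Kit is a receptor tyrosine kinase. Binding of stem cell factor, the product of Kitl, pairs 2 receptors, and their phosphorylated tails recruit adaptors, PI3-kinase, Src-family kinases and phosphatases that feed the RAS-MAPK, AKT and STAT arms. Early erythroid progenitors depend on this signal to survive and divide, mutations of Kit or Kitl cause anaemia in mice, and Kit is shut off as red cell precursors mature. The gene is controlled by the promoter and by distal enhancers bound by GATA factors, where GATA1 takes the place of GATA2 during maturation.

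A c-Kit antibody was among those used to sort these cells, and the gates were not given in the sources used here. The Kit mRNA level of a population and the way it was sorted therefore cannot be told apart. In bulk samples, fewer cells of a type and less RNA per cell also cannot be told apart.

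Kit lies on the plus strand of mouse chromosome 5, at chr5:75574991-75656721 in mm10, and the counted transcript NM_021099 has 5142 exon bases. No other gene of GENCODE vM21 overlaps it. The sequences that carry the chromatin result come first: the promoter, and the 300 bases at the centre of 5 peaks of the stress BFU-E list. All are plus-strand reference sequence of GRCm38 (C57BL/6J), not sequence read from these mice. The promoter is RefSeq's entry on GRCm38.p6, the 250 bases that end just before its start site (chr5:75574737-75574986), and its capitals mark the only matches to any motif searched, AGGAAG, the core read by ETS factors, and GGGTG, which on the other strand is the KLF core CACCC.
Kit promoter: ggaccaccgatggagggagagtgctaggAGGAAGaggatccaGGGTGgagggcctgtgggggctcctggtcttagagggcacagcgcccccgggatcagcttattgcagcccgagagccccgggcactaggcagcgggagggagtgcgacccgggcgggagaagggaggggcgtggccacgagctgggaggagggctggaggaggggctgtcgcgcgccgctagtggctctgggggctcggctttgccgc
In the peak centres, capitals mark AGATAA or TGATAA, the GATA motif, on either strand. The first 3 centres come from peaks found in the stress list only, upstream of the gene (chr5:75460573-75460872), in intron 1 (chr5:75589470-75589769) and in intron 7 (chr5:75633174-75633473). The last 2, downstream of the gene, come from peaks found in both lists (chr5:75695294-75695593 and chr5:75730925-75731224).
-114 kb, stress only: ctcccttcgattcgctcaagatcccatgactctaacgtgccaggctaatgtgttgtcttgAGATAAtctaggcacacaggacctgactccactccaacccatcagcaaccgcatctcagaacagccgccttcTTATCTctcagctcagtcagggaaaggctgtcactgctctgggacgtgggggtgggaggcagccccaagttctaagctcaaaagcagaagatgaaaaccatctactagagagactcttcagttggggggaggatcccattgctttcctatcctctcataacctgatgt
14.6 kb, stress only: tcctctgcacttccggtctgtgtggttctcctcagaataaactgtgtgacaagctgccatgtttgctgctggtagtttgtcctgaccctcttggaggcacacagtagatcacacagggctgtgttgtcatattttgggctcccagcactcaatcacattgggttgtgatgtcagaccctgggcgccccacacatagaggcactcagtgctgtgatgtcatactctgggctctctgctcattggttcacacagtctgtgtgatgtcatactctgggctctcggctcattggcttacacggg
58.3 kb, stress only: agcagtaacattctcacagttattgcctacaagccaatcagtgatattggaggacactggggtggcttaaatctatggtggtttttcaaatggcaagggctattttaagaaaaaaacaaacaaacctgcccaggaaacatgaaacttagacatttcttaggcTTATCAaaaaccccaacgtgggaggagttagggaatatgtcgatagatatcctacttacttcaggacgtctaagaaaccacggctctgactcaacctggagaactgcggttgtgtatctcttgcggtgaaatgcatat
120 kb, both lists: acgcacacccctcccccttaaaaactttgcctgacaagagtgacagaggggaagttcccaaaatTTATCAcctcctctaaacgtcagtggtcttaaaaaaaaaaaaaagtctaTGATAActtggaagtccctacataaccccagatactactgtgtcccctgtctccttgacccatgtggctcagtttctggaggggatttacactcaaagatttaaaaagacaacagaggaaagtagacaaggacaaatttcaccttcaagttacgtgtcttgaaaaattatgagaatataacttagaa
156 kb, both lists: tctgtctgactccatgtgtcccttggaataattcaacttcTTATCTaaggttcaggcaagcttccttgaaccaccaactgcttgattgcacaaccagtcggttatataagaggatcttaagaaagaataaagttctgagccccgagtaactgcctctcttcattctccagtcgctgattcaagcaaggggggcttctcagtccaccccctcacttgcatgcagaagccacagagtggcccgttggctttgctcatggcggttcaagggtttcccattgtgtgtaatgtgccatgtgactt

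Every one of the 6 marrow peaks at Kit had a counterpart in the stress list, and the stress list held 6 further peaks. Distances are from the start site to the peak centre, negative upstream, and a peak counted as shared when it overlapped a peak of the other list by 1 base or more. The shared peaks lay at the promoter (0.431 kb in the stress list, annotated to a CpG island and intron 1), at -109 kb, and at 120, 156, 170 and 187 kb, past the 3' end of the gene. The 6 peaks of the stress list alone lay at -114, -104 and -103 kb, at 14.6 kb in intron 1 of 20, at 58.3 kb in intron 7, and at 180 kb. A region about 114 kb upstream of Kit is known as a distal enhancer of the gene in haematopoietic cells. In the whole lists, 45.0% of stress peaks had no overlap with a marrow peak, beside 6 of 12 at Kit, so the share at Kit was near the background. In the other direction 4.52% of marrow peaks had no stress counterpart, and Kit had none of these. The stress list was also longer throughout: 347 genes had 6 marrow peaks like Kit, their median number of stress peaks was 9, and 22.5% of them had 12 or more. With 1 merged list per population these counts have no replicate check and no test was made.

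The peak score, the authors' own value per peak, describes order within a list only. It is capped at 1000, the value of 30.4% of marrow peaks and 49.2% of stress peaks. All 6 shared peaks were at the cap in the stress list. In the marrow list, the promoter and 156 kb peaks were at the cap, and the peaks at 170, 187, 120 and -109 kb scored 780, 722, 618 and 512. Of the 6 peaks in the stress list alone, the one in intron 7 scored highest, at 853, above 36.3% of its list. The -103, 180, 14.6 and -114 kb peaks scored 769, 761, 739 and 667, and the -104 kb peak scored 450, above only 3.49% of the list. None of the peaks in the stress list alone reached the cap. A difference in score between the lists shows no change in openness, because the lists differ in length and in the share at the cap.

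**Figure D1:**
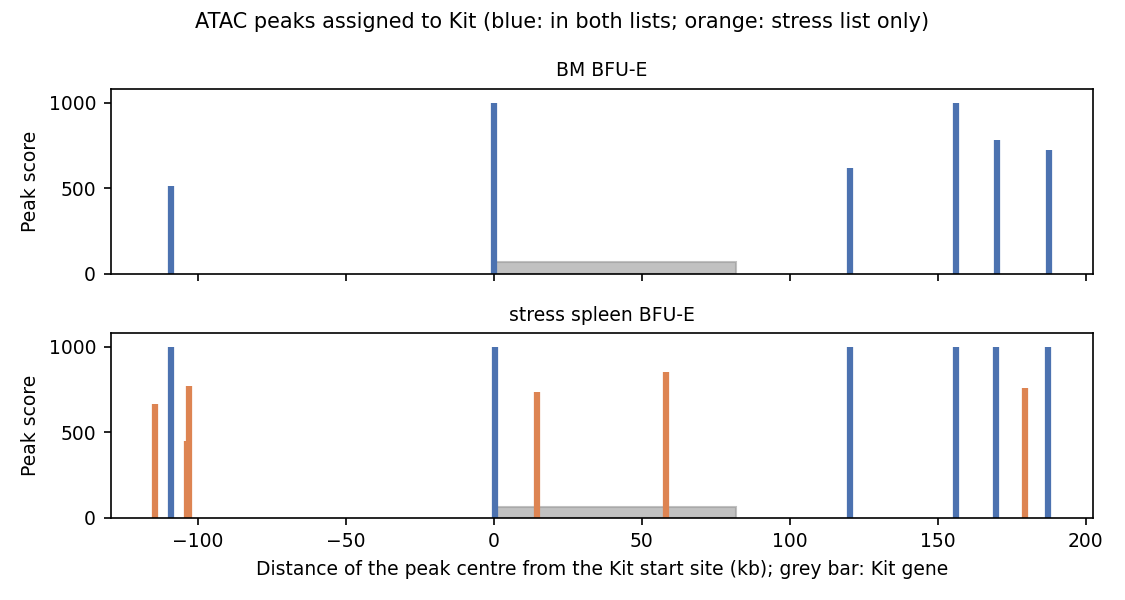
ATAC peaks assigned to Kit, as the authors' peak score (0 to 1000) against the distance of the peak centre from the Kit start site in kb, with marrow BFU-E above and stress spleen BFU-E below. The 6 blue peaks occur in both lists, the 6 orange peaks in the stress list only, and the grey bar marks the gene.

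The peaks fell in 3 groups along the chromosome. Upstream, 4 peaks lay between -114 and -103 kb, of which only that at -109 kb, on an LTR16C repeat, was in the marrow list as well. The -104 kb peak centred on an MLTR14 repeat and the -103 kb peak on a B1F repeat. Within the gene, the promoter peak was joined in the stress list by the 2 intronic peaks. Downstream, 5 peaks lay between 120 and 187 kb, the 156 kb peak within the non-coding gene Gm43101 and the 180 kb peak within Gm43100. HOMER assigned these downstream peaks to Kit by its nearest annotated start site, which is not evidence that they act on Kit.

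The GATA motif occurred in 6 of the 12 stress peak centres, 3 of them in shared peaks and 3 in peaks of the stress list alone. Over the centres of all stress peaks, 25.4% held it. The -114 kb centre held it at 2 places, AGATAA at chr5:75460633-75460638 and its reverse complement at chr5:75460705-75460710, and so did the 120 kb centre. Over all stress peaks, 4.79% of centres held 2 or more. The intron 1 centre at 14.6 kb held no GATA motif, and its only match was to the RUNX motif TGTGGT, which 29.8% of all stress centres held. At 156 kb the single GATA motif lay at chr5:75730965-75730970, inside both the stress and the marrow peak but outside the 300-base centre of the marrow peak, so these counts depend on where a peak's centre falls. In the marrow list 2 of 6 centres held the GATA motif, beside 21.4% of all marrow centres.

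The other motifs were searched on both strands in the same way. CACCC was in 9 of the 12 stress centres (58.2% of all stress centres), AGGAAG in 6 (46.8%), the E-box CAGNTG in 4 (55.1%), the AP-1 motif TGANTCA in 4 (10.8%) and TGTGGT in 3 (29.8%). The composite motif of TAL1 and GATA1, an E-box part and AGATAA at a set spacing, was searched as CTG, then 8 or 9 bases, then AGATAA, the last part of which overlaps the GATA motif. Neither spacing was in any of the 12 (1.06% and 0.608% of all stress centres). The promoter had a GC content of 70.8% and no GATA motif, which 16.6% of 250-base promoters held. Its AGGAAG occurs in 29.5% of promoters and CACCC in 52% of them. These are matches of letters in a window and show no binding.

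Kit mRNA was high in all 4 populations, highest in CFU-E and MPP and lower in both kinds of BFU-E. In RPKM, reads scaled to exon length and library size, which allows genes to be compared, the 3 MPP libraries stood at 46.0, 46.6 and 46.2, the 3 stress BFU-E libraries at 27.5, 33.6 and 35.0, and the 3 CFU-E libraries at 54.4, 48.2 and 51.8. The marrow BFU-E libraries stood at 28.4, 34.2 and 31.9 in the deposited table of the 2 BFU-E populations. Kit was thus within the top 2.31% to 3.12% of 24072 genes in the MPP and CFU-E libraries and within the top 4.1% to 6.32% in the BFU-E libraries of both tissues. In the deposited table of all 12 libraries, whose marrow columns are described below, the marrow libraries placed Kit within the top 16.2%, 6.56% and 12.9%. These RPKM carry no correction for composition, so the comparisons below use counts.

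Raw Kit counts were 2510, 2698 and 2115 in marrow BFU-E, 3338, 3571 and 4182 in stress BFU-E, 5170, 2627 and 3387 in MPP, and 6271, 5346 and 5279 in CFU-E, in libraries of 5937778 to 13197159 counted reads. The smallest share was that of stress BFU-E replicate 1, 0.02572% of its counts (95% Clopper-Pearson interval 0.02485% to 0.02661%), and the largest that of CFU-E replicate 3, 0.05341% (0.05198% to 0.05487%), intervals that cover counting error only. Within a population some of these intervals overlapped, as those of MPP replicates 1 and 3 did (0.03811% to 0.04026% and 0.03822% to 0.04089%).

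Among the spleen populations, Kit was lower in stress BFU-E than in MPP. Normalised counts (CPM, scaled to library size with TMM factors) were 401, 454 and 437 in MPP and 249.7, 329.6 and 329 in stress BFU-E. The 2 groups did not overlap, as was the case for 21.4% of all genes tested. The mean was 431 ± 26.9 CPM in MPP and 303 ± 46.0 CPM in stress BFU-E (SD, n = 3), a log2 fold change of -0.51 (SE 0.11, 95% interval -0.74 to -0.28, adjusted p = 0.00896 by edgeR's quasi-likelihood test), which is 29.7% lower. At this threshold 4.13% of 10166 genes passed, and 2.11% of the 10166 were lower in BFU-E. The call rested on the lowest library: without stress BFU-E replicate 1 the log2 fold change was -0.39 and the adjusted p = 0.0769. When the marrow libraries were fitted together with the spleen libraries, the log2 fold change was again -0.51 (SE 0.14), with an adjusted p = 0.313, and 0.335% of genes passed. Over all 16 alternatives the adjusted p ran from 8.59e-05 to 0.313 by edgeR or DESeq2, and 14 passed.

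Kit was higher again in CFU-E. Its CPM there were 486, 453 and 537, all above the 3 stress BFU-E libraries. The mean of 492 ± 42.4 CPM (SD, n = 3) was 1.62-fold that of stress BFU-E, a log2 fold change of 0.70 (SE 0.11, 95% interval 0.47 to 0.93, adjusted p = 7.27e-05 by edgeR). For this pair 21.1% of all genes passed, 9.17% of all genes were higher in CFU-E, and 37.5% had groups that did not overlap. All 16 alternatives kept the direction and the call, with log2 fold changes of 0.58 to 0.76. Between CFU-E and MPP, where 28.8% of genes passed, the libraries overlapped and Kit did not pass, with a log2 fold change of 0.19 (95% interval -0.04 to 0.42, adjusted p = 0.209 by edgeR). The interval allows a CFU-E level from 0.975 to 1.34 times that of MPP.

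Genes that were lower in stress BFU-E than in both MPP and CFU-E, each by edgeR, numbered 39 of 10166, or 0.384%, and Kit was one. The 2 comparisons share the stress BFU-E libraries. The genes of 2 other sorting antigens were among the 39, named after their values were seen. Ly6a, which encodes Sca1, the antigen that separated MPP from BFU-E in the sort, had 19.8 ± 1.28 CPM in MPP, 0.286 ± 0.373 in stress BFU-E and 1.94 ± 1.82 in CFU-E (SD, n = 3). Cd24a had log2 fold changes of -1.63 (BFU-E against MPP) and 2.296 (CFU-E against BFU-E), beside -0.51 and 0.70 for Kit.

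**Figure D2:**
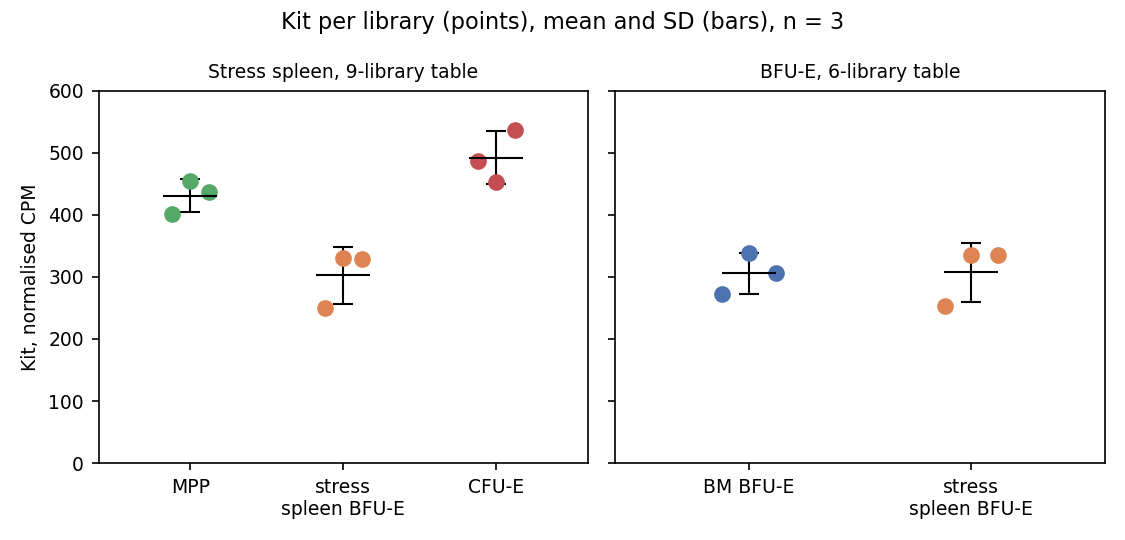
Kit in each RNA library as normalised CPM (points) with the mean and SD of each population (n = 3), from the fit of the 9 stress spleen libraries on the left and of the 6 BFU-E libraries on the right. Stress BFU-E lies below MPP and CFU-E without overlap, and the marrow and stress BFU-E libraries overlap.

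Kit was not found to differ between the marrow and stress BFU-E. In the fit of these 6 libraries the marrow samples had 272, 338 and 306 CPM and the stress samples 253, 335.4 and 334.9 CPM. The ranges overlapped, with the lowest and 2 of the 3 highest values among the stress libraries. The means were 305 ± 32.7 and 308 ± 47.5 CPM (SD, n = 3), a log2 fold change of 0.01 (SE 0.17, 95% interval -0.39 to 0.41, adjusted p = 0.992 by edgeR), so that a stress level between 0.762 and 1.33 times that of marrow is compatible with the data. Only 12 of 10702 genes passed in this comparison, or 0.112%. The marrow libraries were less even than the stress libraries: 1.53% to 15.3% of the listed genes had no read in them, against 0.421% to 0.738% in the stress libraries. Marker sums, which were not tested, overlapped between the 2 tissues for some lists and not for others. The 8 stem and multipotent markers in the table summed to 615 to 840 CPM in marrow and 463 to 489 CPM in stress BFU-E, and the 7 erythroid markers to 160 to 274 and 299 to 345 CPM. The 9 myeloid markers in the table summed to 794 to 2004 CPM in marrow and 699 to 843 CPM in stress BFU-E. Gene by gene, all 9 had lower estimates in stress BFU-E, with a median log2 fold change of -2.40, beside 0.01 over all genes. Of the stem and multipotent markers 7 of 8 were lower (median -1.12), and of the erythroid markers 5 of 7 were higher (median 0.42). By edgeR 1 myeloid and 1 stem marker passed, beside 0.112% of all genes. Mast cells express Kit strongly, and their markers were summed with those of basophils, so the sum does not separate these cell types. The 5 such markers in the table summed to 29.1, 156 and 7.39 CPM in marrow replicates 1, 2 and 3. In stress BFU-E they summed to 8.71 to 23.1 CPM, so that marrow replicate 2 alone carried the high value. Without that library the log2 fold change of Kit was 0.09 (adjusted p = 0.807 by edgeR). The part of these markers in the Kit level was not tested.

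Marrow BFU-E was also set against MPP and CFU-E. The deposited RPKM table of all 12 libraries gave Kit values of 23.96, 60.2 and 33.1 in marrow BFU-E, and limma on log2(RPKM + 1) found log2 fold changes of -0.34 against MPP (SE 0.25, adjusted p = 0.247) and -0.49 against CFU-E (SE 0.25, adjusted p = 0.0992) on that scale. With this table, 66.8% of genes passed in each of the 2 comparisons, and its marrow columns followed the marrow counts poorly, with a correlation of 0.361 to 0.56 across genes between a count library and the column of the same number. In the other RPKM table the best-matching column had a correlation of 0.981 to 0.988. With marrow values from that other table, limma gave -0.54 (adjusted p = 0.0417) and -0.69 (adjusted p = 0.00553). Joining the count tables over 10135 genes, edgeR gave -0.51 against MPP (95% interval -0.81 to -0.22, adjusted p = 0.0595, where 3.88% of genes passed) and -0.72 against CFU-E (95% interval -1.02 to -0.42, adjusted p = 0.00321, where 16.7% passed).

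On this joined scale the order of the means was CFU-E at 513 ± 42.0 CPM, MPP at 445 ± 28.9, stress BFU-E at 312 ± 48.1 and marrow BFU-E at 311 ± 33.0 (SD, n = 3). Between the first pair of neighbours, CFU-E and MPP, the libraries did not overlap on this scale (473 to 556 CPM against 413 to 470), but the difference did not pass (adjusted p = 0.52 by edgeR). The 2 BFU-E populations overlapped. The joined marrow libraries, at 277, 343 and 315 CPM, all lay below the lowest MPP library, at 413 CPM. The share of all genes without overlap was not counted on this scale, so neither separation is set against a background.

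**Figure D3:**
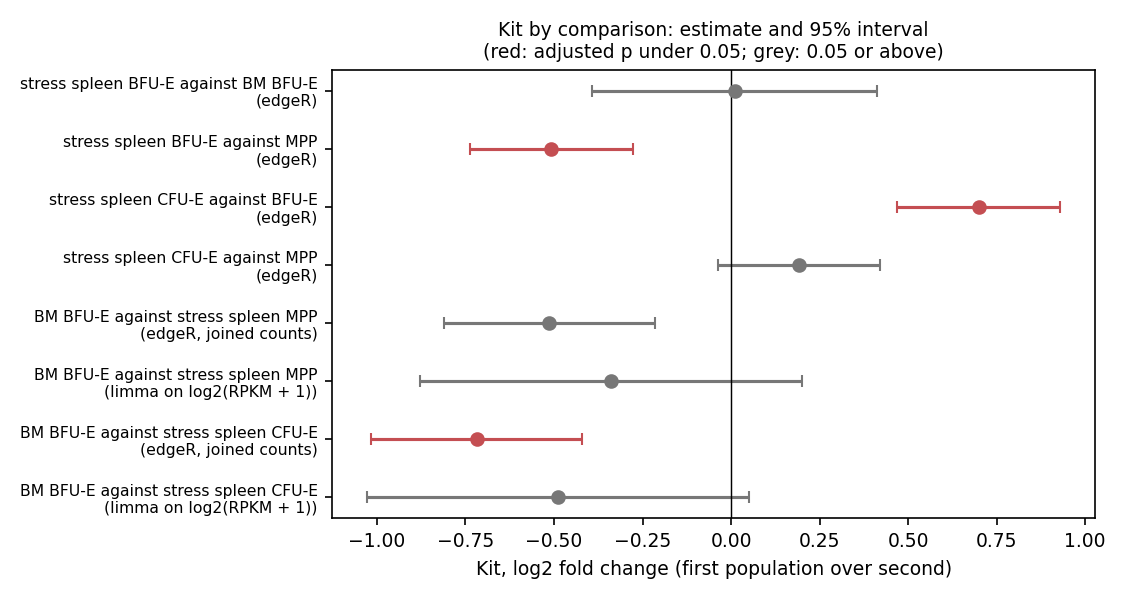
Log2 fold change of Kit with its 95% interval for each comparison, first population over second, by the test named on the axis; red marks an adjusted p under 0.05. CFU-E against stress BFU-E lies furthest above 0, the 2 BFU-E populations differ by 0.01, and marrow BFU-E lies below MPP and CFU-E in both fits, passing only in the joined counts against CFU-E.

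On stem cell and erythroid markers the spleen populations followed the order of their labels. The 10 stem and multipotent markers summed to 764 to 918 CPM in MPP, 458 to 481 in stress BFU-E and 113 to 160 in CFU-E, while the 12 erythroid markers summed to 173 to 236, 300 to 345 and 1952 to 1992 CPM. Neither order is that of Kit, which was lowest in BFU-E. Megakaryocyte markers (8 genes) summed to 1017 to 1187 CPM in MPP, 1780 to 2053 in stress BFU-E and 78.3 to 90.2 in CFU-E, and myeloid markers (10 genes) to 102 to 456, 687 to 828 and 29.9 to 68.2. The high myeloid value of MPP was that of replicate 1 alone, with 102 and 123 CPM in replicates 2 and 3. In MPP and in both kinds of BFU-E the megakaryocyte sum was above the erythroid sum. In marrow it was 2075 to 3104 CPM, beside 160 to 274 CPM for the 7 of 12 erythroid markers in that count table. Among the spleen populations the megakaryocyte and myeloid sums were highest in stress BFU-E, where Kit was lowest, and their part in the Kit result was not tested. The 11 mast cell and basophil markers summed to at most 24.4 CPM in any spleen library, with Tpsab1, Tpsb2, Cma1 and Mrgprb2 at 0 in all 9, and the 8 lymphoid markers to 25.3 to 68.5 CPM, with Cd3e at 0.

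The ligand gene was near silent. Kitl was listed at 0 in all 3 MPP libraries, at 0.047, 0.383 and 0.055 RPKM in stress BFU-E, at 0.213, 0 and 0 in CFU-E, and at 0.011, 0 and 0 in marrow BFU-E, too low to test.

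Kit was the most abundant of its receptor family in every population. Its mean RPKM was 23.4 times that of Flt3 in MPP, 11.9 times that of Kdr in stress BFU-E, 38.1 times that of Pdgfrb in CFU-E and 2.48 times that of Csf1r in marrow BFU-E, in each case the relative with the next highest mean. Csf1r, the macrophage colony-stimulating factor receptor, was at 10.8, 18.2 and 8.99 RPKM in marrow BFU-E and at 1.40, 1.23 and 1.28 RPKM in stress BFU-E. Its log2 fold change in stress BFU-E was -3.31 (adjusted p = 0.0373 by edgeR), and it was the 1 of 4 relatives tested that passed there, beside 0.112% of all genes. Csf1r is also one of the 9 myeloid markers described above, all of which had lower estimates in stress BFU-E, with a median log2 fold change of -2.40.

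Between MPP and stress BFU-E none of the 4 relatives tested passed by edgeR or DESeq2, where 4.13% and 8.36% of all genes did. An unadjusted p under 0.05 by edgeR was found for 1 of the 4 (15.8% of all genes). Flt3, the receptor of early lymphoid and myeloid progenitors, was at 2.33, 0.603 and 2.99 RPKM in MPP, at 1.80, 0 and 1.03 in stress BFU-E, at 0.086, 0.051 and 0.153 in CFU-E, and at 8.11, 2.73 and 1.90 in marrow BFU-E. From stress BFU-E to CFU-E it fell by 3.21 on the log2 scale (adjusted p = 0.031), although the libraries overlapped. Pdgfrb had means of 1.34, 1.19, 1.35 and 0.906 RPKM in MPP, stress BFU-E, CFU-E and marrow BFU-E and passed in none of the comparisons by edgeR. Pdgfra, Flt1 and Flt4 had means of at most 0.28 RPKM in each population. The direction of Kit from BFU-E to CFU-E was thus opposite to that of Flt3 and Kdr.

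**Figure D4:**
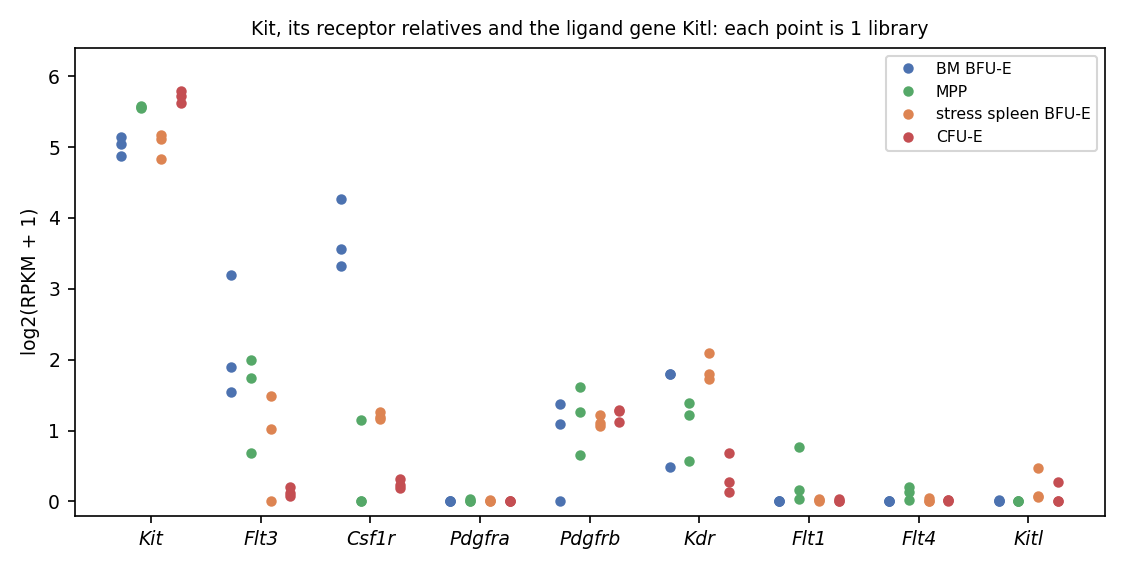
Kit, 7 related receptors and Kitl in each of the 12 RNA libraries, as log2(RPKM + 1), coloured by population; marrow values are from the table of the 2 BFU-E populations. Kit lies above every relative in every library, and Csf1r in marrow BFU-E comes next.

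On the chromosome, Kit stands between Pdgfra and Kdr, both of its receptor family. Pdgfra was at or below 0.021 RPKM in every library, and no protein-coding gene of GENCODE vM21 lies between it and Kit. Kdr, the VEGF receptor 2 gene, was at 1.62, 1.33 and 0.479 RPKM in MPP, 2.31, 3.29 and 2.49 in stress BFU-E, and 0.206, 0.607 and 0.102 in CFU-E, highest where Kit was lowest. It fell from stress BFU-E to CFU-E by 3.14 on the log2 scale (SE 0.56, adjusted p = 0.000275 by edgeR). In marrow BFU-E it was at 0.397, 2.49 and 2.46 RPKM. Of the 11 neighbours listed, 6 could be tested in the spleen libraries. None passed between MPP and stress BFU-E by edgeR or DESeq2, where 4.13% and 8.36% of all genes did. An unadjusted p under 0.05 by edgeR was found for 1 of them (15.8% of all genes). Kdr alone passed between stress BFU-E and CFU-E by edgeR, or 16.7% of the 6 beside 21.1% of all genes. These shares were near the background.

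Among the spleen populations the neighbours further out differed less than Kdr. In marrow BFU-E some varied widely between libraries, with SDs of 4.26 RPKM for Chic2, 6.09 for Srd5a3 and 7.13 for Exoc1 (n = 3). Chic2 had means of 8.03, 9.24, 7.23 and 5.34 RPKM in MPP, stress BFU-E, CFU-E and marrow BFU-E, Srd5a3 of 4.91, 7.09, 5.74 and 7.92, Tmem165 of 15.3, 15.5, 14.5 and 18.9, Clock of 1.78, 1.24, 1.14 and 1.70, and Exoc1 of 11.9, 10.1, 9.39 and 10.6. Lnx1 had means of 0.607 to 1.64 RPKM, and Gsx2, Pdcl2 and Nmu were listed at 0 in all libraries. None of those that could be tested passed in the 4 comparisons made by edgeR, where 0.112% to 28.8% of all genes did.

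Of 75 genes in 5 lists of Kit signalling (adaptors, the RAS-MAPK arm, the PI3K-AKT arm, nearby kinases with the STATs, and negative regulators), 73 could be tested between marrow and stress BFU-E and 0 passed by edgeR, 11 having an unadjusted p under 0.05 (9.84% of all genes did). DESeq2, which called 685 genes in all, or 6.4%, passed 7 of them, and edgeR on the joined counts, where 2.71% of genes passed, passed 2. Ptpn6, the phosphatase SHP-1 that dampens Kit, had 296 ± 88.2 CPM in marrow and 148 ± 29.4 CPM in stress BFU-E (SD, n = 3; SE of the log2 fold change 0.25, adjusted p = 0.261 by edgeR), with no overlap between the groups, as in 21.9% of genes. Other abundant members, from the 2 highest of each list, had log2 fold changes of 0.46 for Map2k2, 0.04 for Pik3r1, 0.29 for Akt1, 0.11 for Ptpn11, -0.44 for Vav1, -0.47 for Plcg2, -0.04 for Btk and 0.24 for Adam10. By DESeq2, of these, Ptpn6, Plcg2 and Vav1 passed with adjusted p-values of 0.00176, 0.00959 and 0.0299.

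Between MPP and stress BFU-E, 7 of 71 signalling genes passed by edgeR, or 9.86% beside 4.13% of all genes, 2 higher and 5 lower in BFU-E (2.03% and 2.11% of all genes), with a median log2 fold change of 0.01 beside 0.00 over all genes. Grb10, an adaptor that binds the activated receptor, had 184.5 ± 25.3 CPM in MPP and 81.2 ± 21.2 in stress BFU-E (SD, n = 3), a log2 fold change of -1.18 (adjusted p = 5.44e-05). Ptpn11, the phosphatase SHP2 that carries the signal on to RAS, went the other way, from 200 ± 19.0 to 335 ± 9.77 CPM, a log2 fold change of 0.74 (adjusted p = 9.88e-05). Ptpn6 fell from 233.5 ± 23.8 to 146 ± 29.4 CPM, a log2 fold change of -0.68 (adjusted p = 0.00376). These 3 passed in all 9 fits that left out 1 library.

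The other 4 passed less firmly. Sh2b3, which encodes the inhibitory adaptor LNK, fell by 0.81 on the log2 scale (adjusted p = 0.0244) and missed the threshold without stress BFU-E replicate 1 or 3 or MPP replicate 2 or 3. Plcg1, a phospholipase, fell by 0.70 (adjusted p = 0.0212) and missed it without stress BFU-E replicate 1 or 2 or MPP replicate 2 or 3. Btk, a Tec-family kinase, rose by 0.53 (adjusted p = 0.0163) and missed it without stress BFU-E replicate 2 or 3 or MPP replicate 3. Pik3r1, the p85 subunit of PI3-kinase that docks on the receptor, fell by 0.41 (adjusted p = 0.0362) and missed it without any 1 of the 6 libraries compared. In the RAS-MAPK arm 0 of 16 genes passed by edgeR or DESeq2, and 1 had an unadjusted p under 0.05 (15.8% of all genes did). Map2k2, among its most abundant members, had a log2 fold change of -0.17. The count of 7 was 4 without stress BFU-E replicate 1 or replicate 3 and 3 without MPP replicate 3, and 2 in the joined counts, while DESeq2, with 8.36% of all genes called, passed 16.

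From stress BFU-E to CFU-E, where Kit rose, more signalling genes fell than rose: 21 of 71 were lower and 4 higher by edgeR, 35.2% beside 21.1% of all genes (11.9% lower). Their median log2 fold change was -0.19, beside 0.00 over all genes. In the joined counts 13 passed, beside 5.2% of all genes. The kinases and STATs had the most, with 10 of 15 lower and 1 higher and a median of -0.65. Plcg2, a phospholipase, fell from 291 ± 15.4 to 49.8 ± 8.39 CPM (SD, n = 3), by 2.55 on the log2 scale (adjusted p = 3.13e-12). Prkcb and Prkca, 2 protein kinase C genes whose products restrain Kit, fell by 3.20 (adjusted p = 0.00117) and 2.28 (adjusted p = 6.43e-10). Prkcb was near the floor, with means of 0.875 RPKM in stress BFU-E and 0.095 in CFU-E, beside 8.46 and 1.73 for Prkca.

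The adaptors had 4 lower and 1 higher of 13, or 38.5% beside 21.1% of all genes. Grb10 rose from its low point in BFU-E to 256 ± 14.4 CPM, a log2 fold change of 1.66 (adjusted p = 8.04e-08). Dok2, an adaptor that dampens RAS, Crk and Ptpn11 fell by 1.12, 0.91 and 0.77 on the log2 scale. In the RAS-MAPK arm 3 of 16 fell and none rose, or 18.8%, near the share of all genes. They were Spry1, a feedback inhibitor, by 3.09 (adjusted p = 1.11e-06), Rps6ka1 by 1.74 (adjusted p = 1.44e-07) and Braf by 0.55 (adjusted p = 0.0325). Braf missed the threshold without stress BFU-E replicate 1 or 2 or CFU-E replicate 1 or 2.

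The PI3K-AKT arm had 3 lower and 1 higher of 17, or 23.5%, near the 21.1% of all genes. Pik3cg fell by 1.02 on the log2 scale, Pik3r2 rose by 1.06, and Pik3cd fell by 0.33 (adjusted p = 0.0367), which it did not hold without stress BFU-E replicate 1 or 3 or CFU-E replicate 1 or 3. Of 10 negative regulators tested 20% passed, also near the share of all genes. Ptpn6 rose by 0.47 (adjusted p = 0.015), missing the threshold without stress BFU-E replicate 2 or 3 or CFU-E replicate 2. Socs3 fell by 1.63 (adjusted p = 0.0469), missing the threshold in 6 of 9 fits that left out 1 library: stress BFU-E replicate 1 or 3, MPP replicate 1 or 3, or CFU-E replicate 2 or 3. Socs3 also missed it in edgeR without the filter on low counts (adjusted p = 0.0587) and with only the 2 groups fitted (adjusted p = 0.0607). Grb10 and Ptpn6 were the 2 signalling genes among the 39 genes lowest in stress BFU-E.

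**Figure D5:**
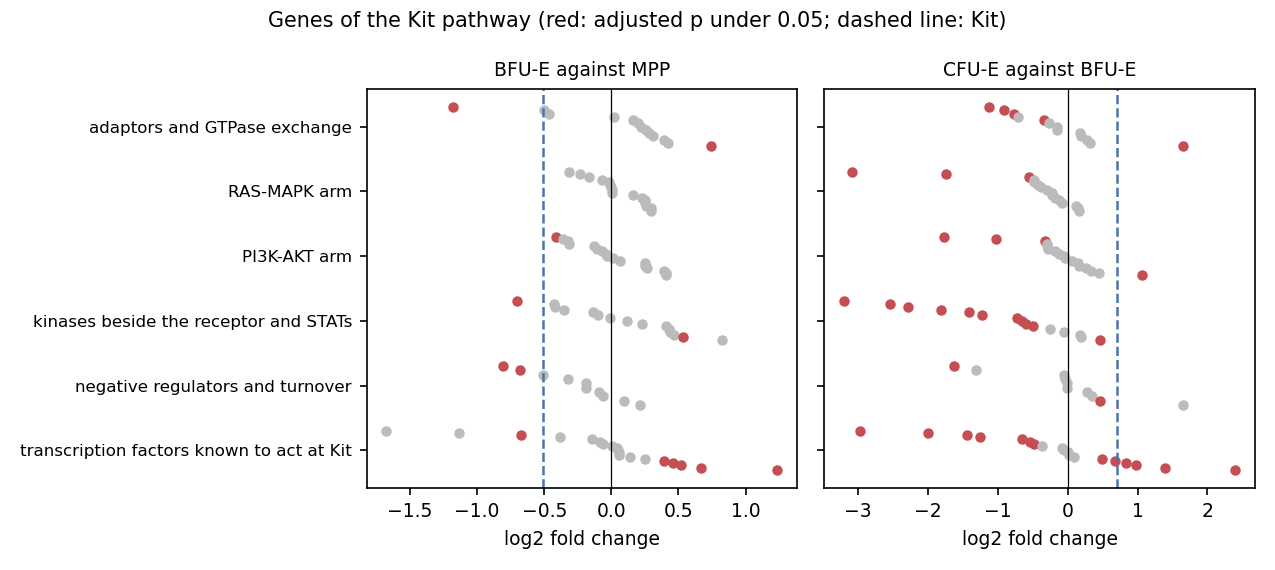
Log2 fold change by edgeR of each tested gene of the 5 signalling lists and of the transcription factor list, for stress BFU-E against MPP on the left and CFU-E against stress BFU-E on the right; red marks an adjusted p under 0.05 and the dashed line is Kit. In the right panel 10 of 15 kinases and STATs are lower in CFU-E while Kit is 0.70 higher.

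Between CFU-E and MPP, where Kit did not pass, 20 of 71 signalling genes were lower and 9 higher by edgeR, 40.8% beside 28.8% of all genes (16% lower and 12.7% higher), and 14 passed in the joined counts, beside 7.35% of all genes. Prkcb, Plcg2 and Prkca differed by -3.55, -2.68 and -1.84 on the log2 scale, Spry1 by -3.10 and Rps6ka1 by -1.74. Of these, Prkcb was near the floor, with means of 1.15 RPKM in MPP and 0.095 in CFU-E. Stat5a, which encodes a transcription factor that relays both Kit and erythropoietin signals, was higher by 0.58 (adjusted p = 0.00255) and Pik3r2 by 1.03 (adjusted p = 0.000947).

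Of 19 genes for transcription factors known to act at Kit, 5 were higher and 1 lower in stress BFU-E than in MPP by edgeR, or 31.6% beside 4.13% of all genes. Klf1, an erythroid activator, rose from 12.1 ± 4.99 to 28.6 ± 4.65 CPM (SD, n = 3), a log2 fold change of 1.24 (adjusted p = 0.00277), and Tal1 from 181 ± 9.71 to 259 ± 9.21 CPM, 0.52 (adjusted p = 0.00413). Gata1, which encodes the factor that takes over Kit enhancers in maturing cells, rose from 71.5 ± 19.1 to 114 ± 10.7 CPM, 0.67 (adjusted p = 0.0202), and missed the threshold without stress BFU-E replicate 1 or 3 or MPP replicate 1 or 2. Erg fell by 0.68 (adjusted p = 0.012) and missed it without stress BFU-E replicate 1 or 2 or MPP replicate 3.

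In CFU-E, 6 of these factors were higher and 7 lower than in stress BFU-E by edgeR, 68.4% beside 21.1% of all genes. Klf1 rose by a further 2.40 on the log2 scale (adjusted p = 7.85e-08), Myb, a progenitor factor, by 1.39 (adjusted p = 4.11e-11) and Ldb1 by 0.97 (adjusted p = 1.52e-06). Fli1, Spi1 and Runx1, factors of the megakaryocytic, myeloid and stem cell programmes, fell by 2.97, 2.00 and 1.44. Gata2, named after its values were seen because it is the partner of Gata1 at Kit, had 464 ± 28.9 CPM in MPP, 512.5 ± 24.9 in stress BFU-E and 327.5 ± 50.5 in CFU-E, and from BFU-E to CFU-E it fell by 0.65 (adjusted p = 0.000104) while Gata1 rose by 0.49 (adjusted p = 0.0313). Between marrow and stress BFU-E, 0 of the 19 passed by edgeR, where 0.112% of all genes did. By edgeR 6 of the 19 had an unadjusted p under 0.05, beside 9.84% of all genes. DESeq2 passed 4 of the 19, beside 6.4% of all genes. The most abundant, Myb and Zfpm1, had log2 fold changes of -0.40 and -0.18 by edgeR. Myb was one of the 4 that passed by DESeq2 (-0.41, adjusted p = 0.0348).

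The genes whose pattern over the 9 spleen libraries was most like that of Kit were found by the root mean square difference of log2 CPM, each gene centred on its own mean, among 7039 genes, whose median difference was 0.419. The 10 closest were Mif4gd (0.122), Mrps22 (0.129), Apobec3 (0.152), Rbm45 (0.153), Mto1 (0.158), Trim21 (0.159), Vti1b (0.162), Bcl11a (0.162), Eif2s2 (0.166) and Rela (0.168). All had their lowest mean in stress BFU-E. Apobec3 had 180 ± 5.10 CPM in MPP, 123 ± 8.79 in stress BFU-E and 200 ± 8.78 in CFU-E (SD, n = 3), and was the 1 of the 10 that passed in both comparisons, with log2 fold changes of -0.55 and 0.70, the sizes of Kit to within 0.05. Bcl11a, a repressor of fetal globin genes, had 295 ± 30.9, 244 ± 13.0 and 390 ± 33.1 CPM and passed from BFU-E to CFU-E only (adjusted p = 6.44e-05, against 0.184 from MPP to BFU-E). These are likenesses over 9 libraries, chosen as the closest of many.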

How the data were processed

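RNA was sequenced from 12 sorted-cell libraries and open chromatin from 6. Per the submitters' processing notes, the tools were HOMER 4.8, Bowtie2 2.3.4.2, DESeq2 and STAR 2.6.0b-1, and the build was mm10 (GRCm38). Per the file headers, HOMER counted reads in exons, 1 transcript per gene, and the authors deposited them as raw counts and as RPKM. The counts of the 2 BFU-E populations were deposited only for genes with a mean of 50 or more. Whether counting used strand is not given in the sources used here. The authors' peak lists carry a score per peak; the caller is not given in the sources used here. Of 76147 marrow and 117426 stress entries, repeats of the same interval were counted once.

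Counts were tested with edgeR 4.0.16 (R 4.3.3; TMM, quasi-likelihood F test, Benjamini-Hochberg over all genes), in the spleen table on genes with a mean count of 50 or more. RPKM were tested with limma 3.58.1 on log2(RPKM + 1), for genes at 1 RPKM or more in at least 3 libraries. DESeq2 1.42.0, with a local dispersion trend, was an alternative, as were other scalings and filters, joined counts, a replicate block and leaving out each library. Peaks, sequences and motifs were handled in Python 3.11.15, and every chromosome of the peak lists was found in GRCm38.p6 with no peak past its end. Promoter sequence is from RefSeq, where Kit has 2 entries, of which the first was used.

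The edgeR steps were tested on simulated data with 200 changed genes: for stress BFU-E against MPP (10166 genes), 57% of 2-fold and 88% of 4-fold changes were recovered, and for stress against marrow BFU-E (10702 genes) 5% and 41%. Kit and its lists were chosen with earlier results of these data known. Named genes are Kitl, the receptor relatives, the neighbours, and per list the members that passed with the largest changes, up to 3 per direction, or the 2 most abundant where none passed; for CFU-E against MPP only part of these are given, and some genes the rule names are not reported here.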

Additional observations from a re-analysis of the deposited data

How the results depend on the processing

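For Kit, 111 of 120 alternative fits kept the side of the threshold. No fit changed direction where it or the main fit passed. Where neither passed the sign could differ, as it did for stress against marrow BFU-E. Stress BFU-E against MPP lost its call in the joined counts of 12 libraries (log2 fold change -0.51), and over the fits that left out 1 library it ran from -0.57 to -0.39. The same ranges were -0.06 to 0.13 for stress against marrow BFU-E, 0.58 to 0.76 for CFU-E against stress BFU-E and 0.12 to 0.25 for CFU-E against MPP. Marrow BFU-E against MPP passed with marrow values from the other RPKM table (-0.54), and against CFU-E it passed there (-0.69) and in the joined counts (-0.72). In limma, these 2 comparisons ran from -0.70 to -0.048 and from -0.85 to -0.20 when 1 library was left out, and both passed only without marrow BFU-E replicate 2. In the joined counts they ran from -0.59 to -0.44, passing only without marrow BFU-E replicate 2 or 3, and from -0.79 to -0.64, passing in all 12 fits. Where fits differ in the RPKM table used the cause was not tested; those that left out a library had fewer samples.

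The count of signalling genes that passed was 16 by DESeq2 and 2 in the joined counts for stress BFU-E against MPP, beside 7 by edgeR. In the joined counts it was 13 for CFU-E against stress BFU-E, beside 25, and 14 for CFU-E against MPP, beside 29. The peak counts at Kit, 6 shared and 6 in the stress list alone, were the same with 50% reciprocal overlap and within 200 kb of the start site; with a score of 600 or more, 5 were shared.

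Same-numbered libraries deviated together weakly. Between spleen populations their correlations across genes were 0.0158 to 0.124, beside -0.0879 to 0.0291 for libraries of different number. Between marrow and stress BFU-E they were -0.035 to -0.0263, beside -0.0129 to 0.0419. As these values were small, the replicate number was not taken to pair samples, though a shared source in the spleen was not excluded. With the replicate block, the log2 fold changes of Kit were 0.00, -0.52, 0.71 and 0.19 in the 4 edgeR comparisons in the order above (stress against marrow BFU-E, against MPP, CFU-E against BFU-E, CFU-E against MPP) and -0.34 and -0.49 in limma, and no call of Kit changed; among the other named genes Socs3, CFU-E against BFU-E, lost its call (adjusted p = 0.0535 by edgeR). Depth limited what could be tested for Kitl, Pdgfra, Flt1 and Flt4.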
